A study of Bos taurus with 8 samples.

Results

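The SOCS genes encode the feedback inhibitors of cytokine signalling, and they are described here together with their relative CISH, the kinase JAK2 and the transcription factor STAT3. Members were taken by name: a probe counted if the array named it for 1 of the 10 genes. Of these, 9 had 1 probe each among 15008 distinct probes, and SOCS6 had none under that name. Of the 9 probes, 7 were well above background on all 8 arrays. SOCS3 was so on 5 and SOCS7 on 1.

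RNA labelled as liver came from 4 Holstein bull cattle (numbers 19, 20, 23 and 24), aged 5 to 6 months and fitted with a rumen fistula, and was measured on 1-colour Agilent arrays. In the 4 g group an animal received 4 g per day of egg yolk immunoglobulin containing an antibody against bacterial lipopolysaccharide (LPS), given through the fistula for 14 days. In the 0 g group, the control, it received none. Both groups ate roughage for 11 days, a high-grain diet for 2 days to bring on subacute ruminal acidosis (SARA) and roughage again for 1 day, and were sampled 2 days after the challenge. A 2 g dose was also part of the trial and is not analysed here. The trial was a Latin square in which animals changed dose, so each animal gave 1 array at 4 g and 1 at 0 g. The order of the doses is not in the labels, and the extraction protocol speaks of rumen epithelium where the other labels say liver.

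When a cytokine binds its receptor, Janus kinases on the receptor phosphorylate STAT factors, which enter the nucleus and switch genes on. In liver, IL-6 acts through STAT3 to raise the acute phase proteins, and growth hormone acts through JAK2 and STAT5 to raise IGF1, SOCS2 and CISH. SOCS1, SOCS2, SOCS3 and CISH are themselves induced by the pathway and close the loop: they bind the receptor or the kinase and, through the SOCS box, bring a ubiquitin ligase to it. SOCS4, SOCS5, SOCS6 and SOCS7 are less tied to cytokine induction and have been linked to growth factor and insulin receptors.

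The 3 probes below are those of SOCS3, SOCS7 and JAK2. SOCS3 carries the widest difference between doses, SOCS7 was hardly measured, and JAK2 is the only kinase among the members. All are 60 bases long as deposited, read 5′ to 3′, and each has a reading frame open along its length. Capitals mark the stop codon that ends the JAK2 probe.
SOCS3 probe (chr19:54459441-54459500, plus strand, UMD 3.1): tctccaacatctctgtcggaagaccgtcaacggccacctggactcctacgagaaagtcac
SOCS7 probe (chr19:39660997-39661056, plus strand, UMD 3.1): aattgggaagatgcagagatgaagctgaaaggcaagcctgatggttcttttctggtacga
JAK2 probe (chr8:39632638-39632697, minus strand, UMD 3.1): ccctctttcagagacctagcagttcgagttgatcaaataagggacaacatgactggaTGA

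A level is the log2 signal of a probe relative to the 75th percentile of its array, so it can be compared between arrays but not between probes. The arrays differed in brightness. The 75th percentile was 125.8 on the 4 g array of animal 19 and 126.3 on the 0 g array of animal 20, against 218.0 to 311.7 on the other 6. Between 64.4% and 80.4% of probes were well above background. Hepatocyte markers were strong on all arrays (10 of 10 well above background), with albumin (ALB) at 6.59 ± 0.45 at 4 g and 6.55 ± 0.39 at 0 g (SD, n = 4 each). Of 13 squamous and rumen epithelium markers on the array, 4 or 5 were well above background at 4 g and 5 to 7 at 0 g, and KRT14, KRT4, DSG3, DSC3, TP63 and KRT36 on none. Summed levels of markers are on the linear scale, not log2, so the brightest markers weigh most in them. The 0 g array of animal 23 also held pancreatic transcripts: the summed level of 10 acinar markers was 1850 there, against 10.5 to 25.1 on the other arrays.

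Some arrays stood apart from their labels. In 67 probes the 8 levels fell into 2 sets of at least 2 arrays, with a gap of at least 2 log2 units that was wider than the spread of either set. In 40 of them the 2 dim arrays lay apart from the other 6, and JAK1, a kinase of the same pathway, was one. Of the other 27, both arrays of animal 19 lay on the same side in 25 and both of animal 20 in 26. Animals 23 and 24 were split by dose in 11 and by animal in 0, so the animal or dose labels of these 4 arrays are uncertain. No member was among the 67. Differences of the members are therefore also given for each pair of animals (19 with 20, and 23 with 24). The values for 23 with 24, and counts over single animals, are dose differences within animals only if these 4 labels are right. The main fit, given below, takes its animal block and its doses from the same labels. Its differences need the dose labels to be right, and its intervals and p-values need the animal labels as well. Giving the pairs apart does not remove that uncertainty.

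No member passed the test between doses, which sets the mean difference against how much the differences within animals vary. In the limma fit with the animal as a block, 0 of 8 tested members passed an adjusted p of 0.05, as did 0 of 10985 probes in all (0.0%). An unadjusted p under 0.05 was reached by 0 members and by 120 probes (1.09%), namely 39 with a positive (0.355%) and 81 with a negative difference (0.737%). Of the 8 members, 5 had a mean above 0 and 3 below, where 55.1% of all probes lay above and 44.9% below, and the median difference was 0.02 against 0.03 over all probes. The same sign in 4 of 4 animals was seen in 0 members, against 5.24% of all probes (3.17% higher and 2.08% lower at 4 g), and the groups overlapped in every member, as in all but 0.61% of probes. In bulk tissue, fewer cells of a type and less RNA per cell cannot be told apart.

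**Figure D1:**
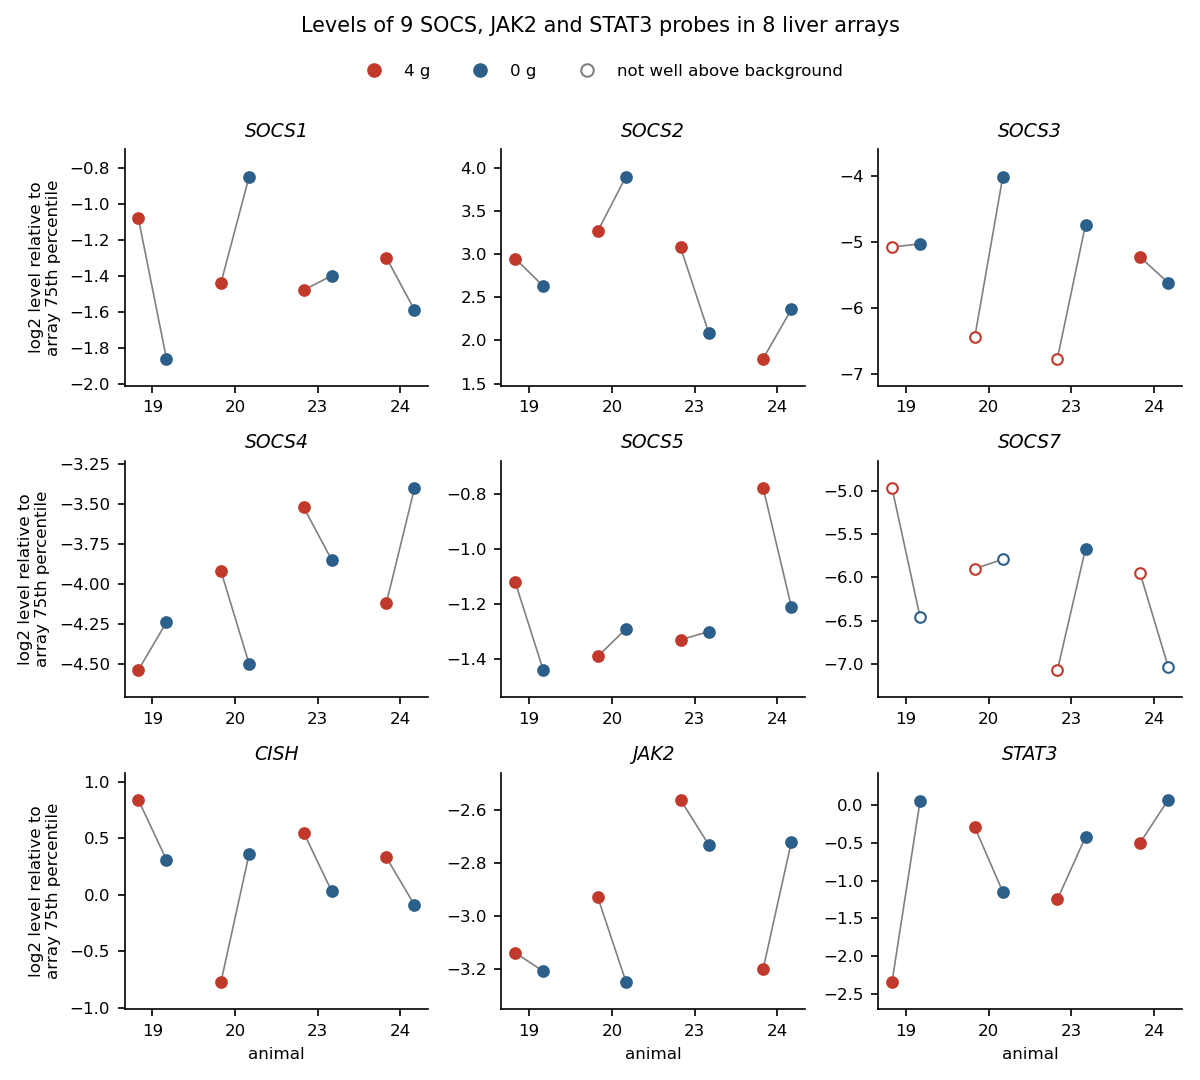
Log2 level (relative to the array's 75th percentile) of the 9 member probes in each animal, with the 4 g array left of the 0 g array and a line joining the arrays of an animal. Open points were not well above background, and each panel has its own axis. In every panel the levels of the doses overlap, and open points occur in the panels of SOCS3 (3, all at 4 g) and SOCS7 (7) alone.

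SOCS3, the inhibitor most strongly induced by IL-6, had the widest gap between group means. Its level was −5.08, −6.45, −6.77 and −5.23 at 4 g in animals 19, 20, 23 and 24, against −5.03, −4.01, −4.74 and −5.62 at 0 g. The 2 lowest arrays were the 4 g arrays of animals 20 and 23, and the highest was the 0 g array of animal 20. In the animals taken singly, the SOCS3 value was lower at 4 g in 20 and 23, almost level in 19 and slightly higher in 24. The 4 g arrays of 19, 20 and 23 did not have it well above background, so these are not measured changes.

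The mean level of SOCS3 was −5.88 ± 0.85 at 4 g and −4.85 ± 0.67 at 0 g (SD, n = 4 each). The difference was −1.03 (SE 0.53, 95% CI −2.31 to 0.24), with a limma adjusted p of 1.00. SOCS3 reached the test through its 0 g arrays, so this difference, its interval and its p describe the values as deposited and give no measured size of the change. The probe was dim: the processed signal was 3.7, 2.5, 2.9 and 6.0 at 4 g and 7.5, 7.8, 10.2 and 6.3 at 0 g. Only 1 of the 4 g arrays, that of animal 24, had it well above background, against all 4 of the 0 g arrays. The 3 arrays below that mark lay under the dimmest well-measured level of their own array (−4.84, −5.62 and −6.16 in animals 19, 20 and 23), so their values carry little information on how low SOCS3 was.

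The SOCS3 difference was −1.25 in animals 19 and 20 and −0.82 in animals 23 and 24. In fits with no animal block it was −1.02 without the 2 dim arrays and −1.00 without the 0 g array of animal 23. Animals 20 and 23 carried it: without animal 20 it was −0.56, and without animal 23 −0.70. Without animal 24 it was −1.51. With normexp background correction it was −0.15, with means of −1.84 at 4 g and −1.69 at 0 g on that scale. That setting adds an offset of 50, more than any processed signal of SOCS3. SOCS7, hardly measured, had means of −1.84 at 4 g and −1.77 at 0 g there, so the value says little on SOCS3.

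The 0 g array of animal 20, where SOCS3 was highest, also had the highest summed level of 5 of the 10 cell type lists. The stellate cell and fibroblast markers (10 of 10 on the array) summed to 26.6 to 47.0 at 4 g and 45.2 to 96.7 at 0 g, with the maximum on that array. Neutrophil markers summed to 4.41 to 5.17 at 4 g and 4.96 to 7.48 at 0 g, again highest there. The lymphocyte (5.98), red blood cell (9.96) and bile duct (41.4) lists were highest there too, against at most 5.22, 9.18 and 31.0 on the other arrays. Of the 10 neutrophil markers, 4 to 6 were well above background at 4 g and 6 or 7 at 0 g, and S100A9, MMP9 and CATHL1 were on no array. The part of these cells, or of array brightness, in the SOCS3 values was not tested.

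Among 10923 other genes, the patterns most like that of SOCS3 over the 8 arrays were those of ETV3L (Pearson r 0.949), TNS4 (0.945), DPM3 (0.944), PRSS27 (0.937) and GPR152 (0.932). These values describe arrays that share animals and brightness and are given without a test. On the 4 g arrays of animals 19, 20 and 23 SOCS3 was not well above background, so the r values rest in part on levels not well measured. Except in DPM3, the levels of these genes ran between −5.66 and −3.49. The dimmest well-measured level of an array lay between −6.16 and −4.69.

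STAT3, the factor that turns on acute phase genes, was second in size. Its level was −2.34, −0.29, −1.25 and −0.50 at 4 g in animals 19, 20, 23 and 24, against 0.06, −1.15, −0.42 and 0.07 at 0 g. The lowest of the 8 arrays was the dim 4 g array of animal 19. The dim 0 g array of animal 20 was the lowest of its group.

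STAT3 averaged −1.10 ± 0.93 at 4 g and −0.36 ± 0.58 at 0 g (SD, n = 4 each), a difference of −0.73 (SE 0.51, 95% CI −1.96 to 0.49) with a limma adjusted p of 1.00. Within animals it was −2.41, 0.86, −0.83 and −0.57, so it was lower at 4 g in 3 of 4. The 2 large values of opposite sign belong to animals 19 and 20, each of which has a dim array on one side. Without animal 19 the difference was −0.18 and without animal 20 it was −1.27. In animals 19 and 20 together it was −0.77, and in animals 23 and 24 −0.70. Without the 2 dim arrays, in a fit with no animal block, it was −0.58, and with normexp it was −0.47.

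The genes whose pattern was most like that of STAT3 were YKT6 (r 0.971), ZNF627 (0.969), FGB (0.953), FZR1 (0.953) and ODC1 (0.948). FGB, which encodes a chain of fibrinogen and is an acute phase gene, stood at 5.87, 7.0, 6.77 and 6.91 at 4 g against 7.21, 6.59, 6.87 and 7.0 at 0 g. All 5 had their lowest level on the dim 4 g array of animal 19, like STAT3. The other fibrinogen chains differed on the dim arrays: FGA was lowest on both (6.51 and 6.84) and FGG highest (7.48 and 7.64). A link of FGB to STAT3 was not tested.

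**Figure D2:**
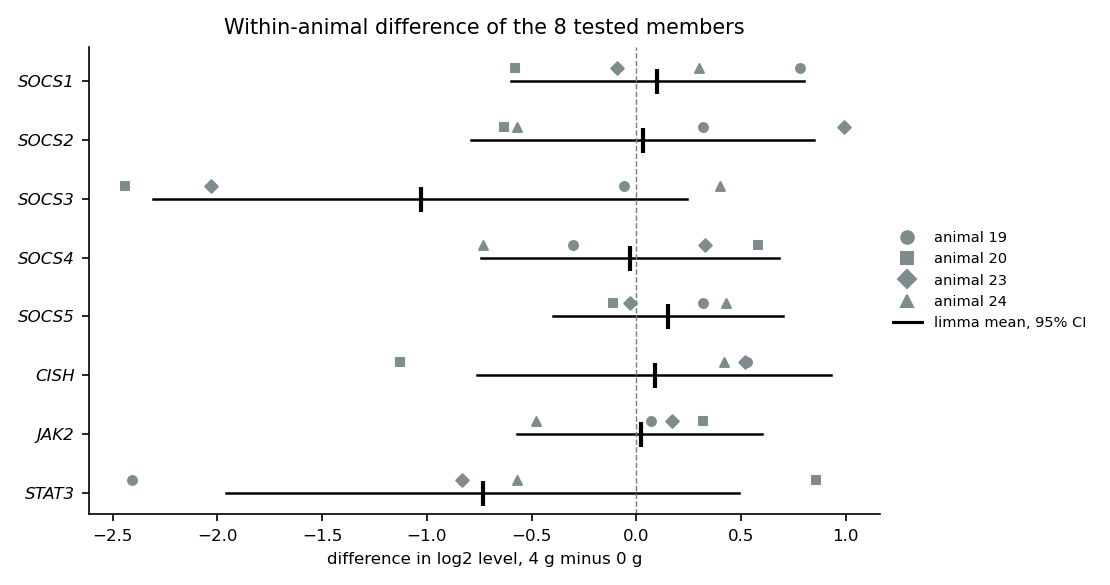
Difference in log2 level, 4 g minus 0 g, of the 8 tested members. Grey symbols are the 4 animals, the black tick is the limma mean and the line its 95% interval, which includes 0 in each member.

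Some genes of the pathway stood apart on both dim arrays, as many other probes did. JAK1 (chosen here after its values were seen) stood at −2.51, 0.54, 0.79 and 0.63 at 4 g, against 0.36, −1.92, 0.90 and 0.88 at 0 g, so both dim arrays lay far below the rest. SOCS4 was lowest on both dim arrays (−4.54 and −4.50) and between −4.24 and −3.40 on the others, whereas SOCS1 was highest on both (−1.08 and −0.85) and between −1.86 and −1.30 on the others. Among the members, only SOCS4 and SOCS1 were placed so. Such placing was common: both dim arrays lay below the other 6 in 19.7% of tested probes and above them in 24.4%. The dim arrays belong to different doses and animals, and the part of brightness in each gene was not tested.

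**Figure D3:**
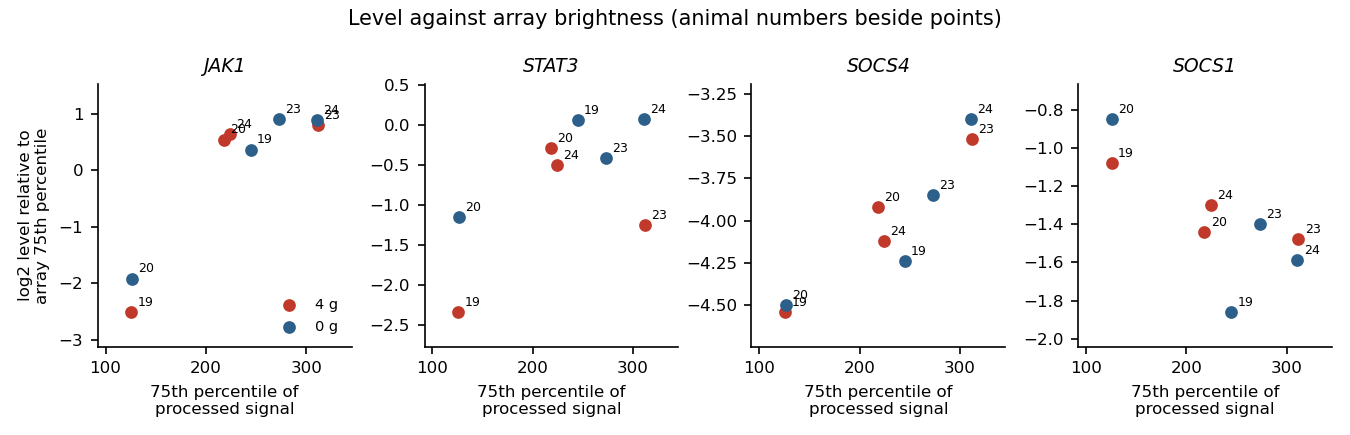
Log2 level of JAK1, STAT3, SOCS4 and SOCS1 (y axis) against the 75th percentile of the processed signal of each array (x axis), with 4 g and 0 g arrays in different colours and the animal number beside each point. The arrays at 125.8 and 126.3 are lowest for JAK1 and SOCS4 and highest for SOCS1.

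The inhibitors that answer to growth hormone and prolactin had small mean differences, and single animals went both ways. SOCS2, which restrains growth hormone signalling, stood at 2.95, 3.27, 3.08 and 1.79 at 4 g in animals 19, 20, 23 and 24, against 2.63, 3.9, 2.09 and 2.36 at 0 g. Animal 20 held the highest level at both doses. The means were 2.77 ± 0.67 at 4 g and 2.75 ± 0.80 at 0 g (SD, n = 4 each), and the difference was 0.03 (SE 0.34, 95% CI −0.79 to 0.85). It was −0.15 in animals 19 and 20 and 0.21 in animals 23 and 24.

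SOCS2 varied more between arrays than most probes (SD 0.68, above that of 82.8% of tested probes). In the limma F-test between animals its adjusted p was 0.985, and 0 of the 10985 probes passed that test (0.0%), while 298 (2.71%) and 0 members had an unadjusted p under 0.05. The gene most like it was PRLR, the prolactin receptor (r 0.949), at −2.01, −1.27, −1.19 and −2.65 at 4 g against −2.05, −0.08, −2.40 and −2.29 at 0 g. COL6A2 (r 0.916), COL6A1 (0.913), LRRC8C (0.912) and HSD17B14 (0.912) followed.

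CISH, the first member of the family to be described, stood at 0.84, −0.77, 0.55 and 0.33 at 4 g, against 0.31, 0.36, 0.03 and −0.09 at 0 g. It was 0.42 to 0.53 higher at 4 g in animals 19, 23 and 24 and 1.13 lower in animal 20, where the 4 g array was the lowest of all 8. The mean difference was 0.09 (SE 0.35, 95% CI −0.76 to 0.93). Without animal 20 it was 0.49, in animals 19 and 20 together −0.30, and in animals 23 and 24 together 0.47.

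SOCS1, an inhibitor of interferon signals that binds the kinases directly, stood at −1.08, −1.44, −1.48 and −1.30 at 4 g, against −1.86, −0.85, −1.40 and −1.59 at 0 g. The 4 g arrays lay within the range of the 0 g arrays. The difference was 0.10 (SE 0.29, 95% CI −0.60 to 0.80), it was higher at 4 g in 2 of 4 animals, and each pair of animals gave 0.10.

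JAK2, the kinase of the growth hormone receptor, stood at −3.14, −2.93, −2.56 and −3.20 at 4 g, against −3.21, −3.25, −2.73 and −2.72 at 0 g. Its 8 levels spanned 0.69, and the difference was 0.02 (SE 0.24, 95% CI −0.57 to 0.60). It was 0.19 in animals 19 and 20 and −0.16 in animals 23 and 24. SOCS5, an inhibitor studied in IL-4 and growth factor signals, was the steadiest member, with an SD of 0.21 over the arrays that was above that of only 10.2% of tested probes. It stood at −1.12, −1.39, −1.33 and −0.78 at 4 g, against −1.44, −1.29, −1.30 and −1.21 at 0 g, a difference of 0.15 (SE 0.23, 95% CI −0.40 to 0.70), with 0.11 in animals 19 and 20 and 0.20 in animals 23 and 24.

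SOCS4 stood at −4.54, −3.92, −3.52 and −4.12 at 4 g, against −4.24, −4.50, −3.85 and −3.40 at 0 g, and the difference was −0.03 (SE 0.29, 95% CI −0.74 to 0.68), with 0.14 in animals 19 and 20 and −0.20 in animals 23 and 24. SOCS7 was well above background on the 0 g array of animal 23 alone. It stood at −4.97, −5.90, −7.07 and −5.95 at 4 g and −6.46, −5.79, −5.67 and −7.03 at 0 g, and it was not tested. Apart from SOCS3 and STAT3, the 95% interval of all 6 tested members excluded a 2-fold change in either direction, as it did for 64.3% of all tested probes.

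The probes of the other members lie on chromosome 25 at 9974944 to 9975003 (SOCS1), chromosome 5 at 23528773 to 23528832 (SOCS2), chromosome 10 at 67749296 to 67749355 (SOCS4), chromosome 11 at 29053151 to 29053210 (SOCS5), chromosome 22 at 50325555 to 50325612 (CISH) and chromosome 19 at 43057415 to 43057474 (STAT3), all in UMD 3.1. These are probe positions, and exon annotation of that build was not used here.

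The rest of the pathway was read from 7 lists of 110 genes, of which 79 were tested. Of these, 0 passed the limma test after adjustment and 1, HAMP, had an unadjusted p under 0.05. Of 8 other Janus kinases and STAT factors 7 were tested, 5 higher and 2 lower at 4 g with a median of 0.04. STAT2, a factor of interferon signalling, averaged 2.97 ± 0.45 at 4 g and 2.78 ± 0.26 at 0 g (SD, n = 4 each), a difference of 0.19 (SE 0.23). STAT5A differed by 0.15 (SE 0.43) and the lymphoid kinase JAK3 by −0.21 (SE 0.33).

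Upstream, few ligands could be measured. Of 22 cytokines and hormones, 18 had a probe and 3 were tested. IL10, an anti-inflammatory cytokine that signals through STAT3, averaged −1.48 ± 0.30 at 4 g and −1.10 ± 0.57 at 0 g (SD, n = 4 each), a difference of −0.38 (SE 0.35). IL27 differed by 0.20 (SE 0.29) and EPO by −0.12 (SE 0.48). The probe that the array names IL6 carries an accession that RefSeq now gives to another gene, so IL6 was not analysed here.

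Of 27 receptor chains 23 were tested, 11 higher and 12 lower with a median of −0.01. The IL-6 receptor chains IL6R and IL6ST differed by 0.16 (SE 0.30) and 0.06 (SE 0.28). The leptin receptor LEPR differed most, by 0.67 (SE 0.30), and was higher at 4 g in 3 of 4 animals, but 1 of the 4 g arrays and 2 of the 0 g arrays did not have it well above background. IL10RA differed by −0.33 (SE 0.28) and CSF3R, a neutrophil receptor, by 0.31 (SE 0.27).

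The other brakes on the pathway, phosphatases and PIAS proteins, had 10 of 12 genes tested, 4 higher and 6 lower, with a median of −0.02. PIAS4 differed by −0.41 (SE 0.45), PTPN1 by 0.14 (SE 0.30) and PIAS2 by 0.13 (SE 0.32). Of 6 tested genes of the ubiquitin ligase that the SOCS box recruits, 5 had a mean above 0 and 1 below, with mean differences between −0.01 and 0.18. Among them were elongin B (ELOB) at 0.18 (SE 0.24) and the cullins CUL2 at 0.14 (SE 0.26) and CUL5 at 0.08 (SE 0.39). Single animals spread more widely, as in CUL5, which differed by 0.62, −1.28, 0.14 and 0.85 in animals 19, 20, 23 and 24.

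Liver genes that IL-6 and STAT3 induce had 22 of 26 tested, 7 higher and 15 lower, with a median of −0.07 against 0.03 over all probes. HAMP, the iron hormone hepcidin, stood at 2.30, 1.31, 3.69 and 1.54 at 4 g, against 3.13, 3.01, 3.51 and 2.92 at 0 g, a difference of −0.93 (SE 0.35, limma adjusted p = 1.00). The 4 g arrays of animals 20, 24 and 19 lay below all 0 g arrays and that of animal 23 above them. Haptoglobin (HP) differed by −0.90 (SE 0.65), the kinase PIM1 by −0.69 (SE 0.44) and LBP, which binds LPS in blood, by −0.43 (SE 0.24). LBP was lower at 4 g in 4 of 4 animals, as were 2.08% of all tested probes. Taken animal by animal, the median of these 22 genes was −0.46 in animal 19, −0.26 in animal 20, −0.18 in animal 23 and 0.37 in animal 24.

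SOCS3 differed by −0.06, −2.44, −2.03 and 0.40 in animals 19, 20, 23 and 24, and HP by −0.9, −1.5, −2.7 and 1.52. In animals 19, 20 and 23 the 4 g value of SOCS3 was not well above background, and in animal 19 it was almost level with 0 g, so no shared pattern is read from these values. PIM1 differed by 0.53, −1.90, −1.31 and −0.07. These are values of 4 pairs, chosen after they were seen and not tested for association.

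Growth hormone and STAT5 genes had 8 of 8 tested, 5 higher and 3 lower, with a median of 0.22. The 3 lower were IGFBP1 (−0.04), IGFBP2 (−0.34) and BCL6 (−0.35). The list was not split by the direction in which a gene answers to growth hormone, so its median is no measure of that pathway. The median was 0.12, 0.47, 0.32 and −0.13 in animals 19, 20, 23 and 24, and 0.04 without animal 20, 0.12 without animal 24, 0.07 with normexp, 0.10 in animals 23 and 24 alone, and, with no animal block, 0.08 without the dim arrays and 0.13 without the 0 g array of animal 23. IGF1, the main growth factor made under growth hormone, averaged 1.08 ± 0.72 at 4 g and 0.73 ± 0.84 at 0 g (SD, n = 4 each), a difference of 0.34 (SE 0.31). ONECUT1 differed by 0.59 (SE 0.27) and was higher at 4 g in 4 of 4 animals, as were 3.17% of all tested probes. BCL6 differed by −0.35 (SE 0.35).

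**Figure D4:**
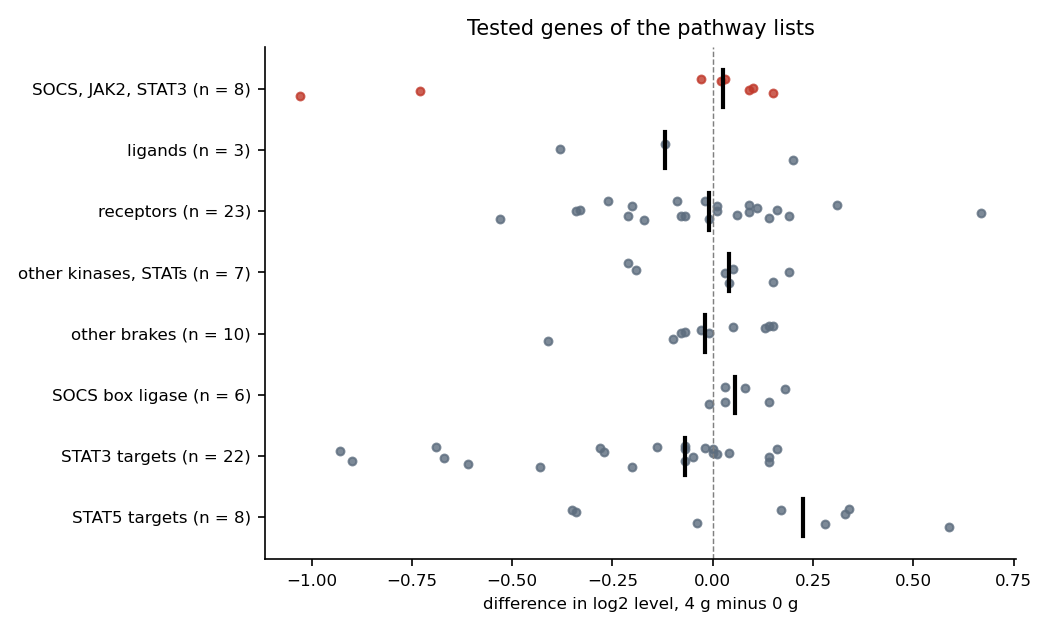
Difference in log2 level, 4 g minus 0 g, of every tested gene of the 7 lists, 1 point per gene, with the median of each list as a black bar and the 8 tested members in red at the top. List medians run from −0.12 to 0.22, and SOCS3 and STAT3 lie to the left of the other members.

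The differences of the members were also computed in other ways. STAT3 lay between −1.27 and −0.18, and the 6 members other than SOCS3 each took both signs. SOCS3 lay between −1.51 and −0.15, but every one of these values uses the same 4 g arrays on which it was not well above background or a subset of them, so its sign carries no weight.

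**Figure D5:**
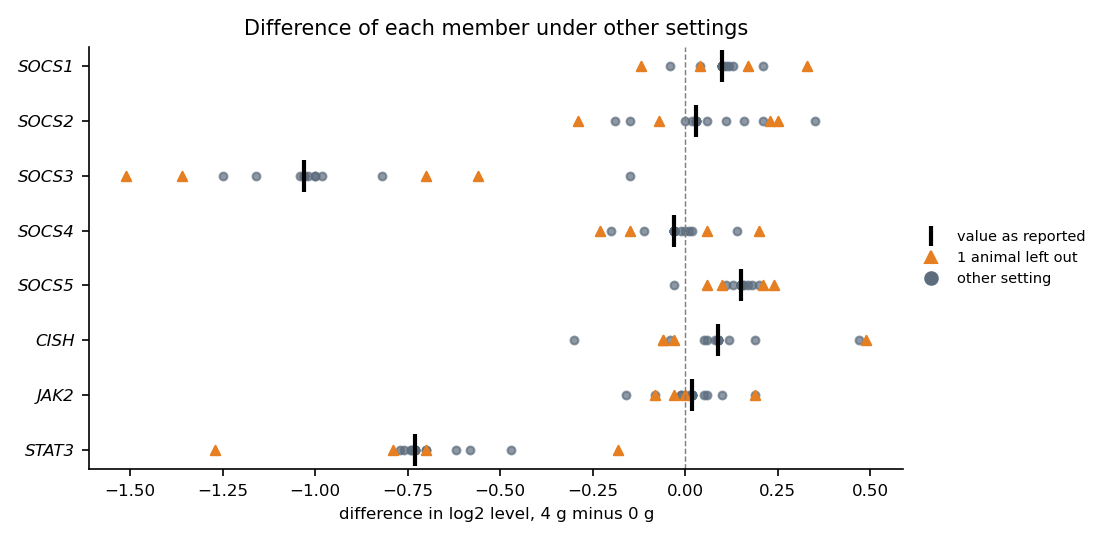
Difference in log2 level, 4 g minus 0 g, of each tested member as reported (black tick), with 1 animal left out (orange triangles) and under the other settings (grey points). STAT3 runs from −1.27 to −0.18 and SOCS3, dim at 4 g, from −1.51 to −0.15, and the other 6 members have points on both sides of 0.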

How the data were processed

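Per the file headers, each scan was read with Agilent Feature Extraction 11.0.1.1, whose processed spot intensity has the background removed within the array. Version 9.5 is given per the submitters' processing notes. Each file also gives the mean spot intensity, the local background intensity and 0 or 1 flags. The series table deposited by the authors holds log2 values with column medians of −3.04 to −2.84. They correlated with the log2 processed signal at 1.00 and, set against it, ran in the same direction on the same scale.

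Of 15646 features on an array, 536 controls were left out, as were 48 outlier spots over all 8 arrays, and no spot was saturated. Log2 processed signal minus the array's 75th percentile was taken, spots of a probe were averaged, and probes well above background on at least 4 arrays were tested (10985). Names came from transcript accessions, symbols or synonyms in a RefSeq table of ARS-UCD2.0, used for names alone (11194, 3085 and 38 probes), while 691 kept the name the array gave. Differences between doses were estimated by lmFit and eBayes of limma 3.58.1 (R 4.3.3, 2-sided) with animal as a block, and p-values were adjusted (Benjamini-Hochberg) over all tested probes, with 0.05 as the threshold. The pairing comes from the labels, where both arrays carry the number of 1 animal. Residuals around the dose means correlated at −0.187, −0.178, 0.213 and 0.127 within animals 19, 20, 23 and 24. The fit was tested on simulated data. For pathway lists the brightest tested probe of a gene was used. The text names all members, up to 3 genes a list (lowest unadjusted p first), others named whatever their p (HP, HAMP, LBP, IGF1, IL6R, IL6ST and markers) and the 5 genes most like SOCS3, SOCS2 and STAT3. A gene of the pathway and a list tied to it are not reported here. Members and lists were chosen with earlier results of these data known. All arrays came from 1 slide, so slide could not be a batch, and the number of arrays limits the precision. Alternatives were normexp background correction (offset 50), quantile and median scaling, no or a stricter filter, no block and the series table. Further ones were other variance models, array weights and the fits without single animals or arrays.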

Additional observations from a re-analysis of the deposited data

Results flagged for a closer look

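In 99 sets of 4 values (the levels per dose and the within-animal differences of the members and the named pathway genes), 4 held a value far from the other 3, where chance alone gives about 1 in 20. The difference of CISH was −1.13 in animal 20, against 0.42 to 0.53 in the other animals. On the dim 4 g array of animal 19, PIAS2 stood at −4.02, against −4.56 to −4.49 on the other 4 g arrays, and CUL2 stood at 0.02, against 0.60 to 0.64. On the 0 g array of animal 23, which held the pancreatic transcripts, ONECUT1 stood at 1.81, against 2.40 to 2.47 on the other 0 g arrays.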

How the results depend on the processing

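STAT3 ranged from −1.27 to −0.18 over 18 alternatives. Changing the filter, the variance model or, on all arrays, the block cannot move its mean difference, which stayed at −0.73. The other settings reuse the same arrays or a subset of them, so the shared sign is no sign of stability. SOCS3 ranged from −1.51 to −0.15 over 17, but rests throughout on 4 g arrays on which it was mostly not well above background, so this is no sign of stability. No member passed an adjusted p of 0.05 under any of them (limma, smallest adjusted p 0.971). The members near 0 changed sign. With normexp background correction SOCS1 was at −0.04, SOCS5 at −0.03 and JAK2 at −0.08. That setting adds an offset of 50, against processed signals of 13.3 to 53.0 for JAK2. SOCS4 was at 0.01 after quantile normalization, and JAK2 at −0.01 with array weights. In fits with no animal block, without the 0 g array of animal 23 SOCS2 was at −0.19 and SOCS4 at 0.02, and without the dimmest array of each group CISH was at −0.04 and JAK2 at −0.01. In animals 19 and 20 alone SOCS2 was at −0.15, SOCS4 at 0.14 and CISH at −0.30. In animals 23 and 24 alone JAK2 was at −0.16 and the ligand list at −0.42. Leaving out 1 animal at a time gave −0.12 to 0.33 for SOCS1, −0.29 to 0.25 for SOCS2, −0.23 to 0.20 for SOCS4, −0.06 to 0.49 for CISH and −0.08 to 0.19 for JAK2. The cause was not tested.

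Probes with an unadjusted p under 0.05 numbered 120 as reported, 17 with normexp, 186 with no filter (15008 probes), 362 with array weights, 16 in animals 19 and 20, 451 in animals 23 and 24, and 58 to 404 with 1 animal left out. With no replicate block they numbered 103 on all arrays, 50 when the 0 g array of animal 23 was also left out and 307 when the dimmest array of each group was. In that last fit, which drops both arrays and block, 5 probes passed after adjustment, none of them a member: IL20RA, ULBP3, LOC768255, GIMAP4 and GIMAP6, all among the probes with 2 separate levels and named after their values were seen. With no replicate block and all arrays SOCS3 differed by −1.03 (limma adjusted p = 1.00). The mean difference cannot change there, since each animal gave 1 array per dose. No probe passed after adjustment with the block or without it, so this says nothing on the pairing. The filter on all 8 arrays removed SOCS3. Signal over background limits what can be said of SOCS3 and SOCS7.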
